A study of Rattus norvegicus with 4 samples.

Results

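The genes described here are 55 genes of the cell division cycle, chosen by name for their roles: cyclins and cyclin-dependent kinases (CDKs) of G1, CDK inhibitors, DNA replication genes, and genes of mitosis and cytokinesis. Of these, 51 had a probe set whose annotation gives that symbol and no other, 74 probe sets among the 20826 with 1 symbol on the array. Rrm2, Anln and Ckap2 share their probe sets with a second symbol and Tpx2 was not matched, so these 4 are not analysed here. The 55 genes were chosen with earlier results of these data known, so their shares and medians are descriptions and not an independent test. Smooth muscle cells cultured from the aorta of Sprague-Dawley rats had spent 5 days in medium with 10% serum and 3 days without serum. For the next 24 hours they received IL-1b (interleukin-1 beta, a cytokine of inflammation) at 2.5 ng/mL (2 samples) or its vehicle, 0.1% bovine serum albumin (2 samples). Each sample was hybridised to its own single-colour Affymetrix rat array. Whether samples of a group came from separate cultures is not stated in the labels, and the spread behind each p-value may therefore be technical.

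A cell leaves G1 when D-type cyclins with Cdk4 or Cdk6, and then E-type cyclins with Cdk2, phosphorylate the retinoblastoma protein and release E2F factors, which switch on replication genes. The genes of mitosis follow in G2, under cyclin B with Cdk1, and their transcription in quiescent cells is held down by the DREAM complex of p130, E2F4 and the MuvB core. CDK inhibitors of the Cip/Kip and Ink4 families oppose these kinases. Smooth muscle cells of the artery wall divide rarely, and cells deprived of serum in culture tend to stop in G0 or G1.

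The array of IL-1b replicate 1 differed from the rest in its control signals. Its spiked hybridisation controls were 3.50 times as bright as with vehicle, and those of IL-1b replicate 2 were 0.954 times as bright. Background, taken as the 95th percentile of 27 dim bacterial control probe sets, was 76.7 and 18.8 intensity units on IL-1b replicates 1 and 2 and 29.4 and 26.9 on the vehicle arrays. Over the tested cell cycle genes the median absolute log2 difference was 0.54 between the IL-1b arrays and 0.17 between the vehicle arrays. Of 8 smooth muscle markers, which check the labelled cell type, 7 were above background on all 4 arrays. Their summed intensity was 11731 and 8746 with IL-1b and 31702 and 32279 with vehicle, with 7 of 8 lower. Among 7 endothelial markers, 0 were above background on all arrays and 5, Pecam1 and Vwf among them, on no array. Their sums were 252 and 95.3 with IL-1b and 94.4 and 115 with vehicle. The 7 leukocyte and macrophage markers summed to 1737 and 2016 with IL-1b and 750 and 675 with vehicle, with Lyz2 the 1 of 3 tested that was higher and Itgam on no array above background. The 6 fibroblast markers summed to 2144 and 2954 with IL-1b and 1416 and 1318 with vehicle, with Pdgfra and Dpt, 2 of 4 tested, higher. The part of these marker changes in the results below was not tested.

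After 24 hours with IL-1b, 9 of 28 tested genes of mitosis and cytokinesis fell, among them 4 of 5 cytokinesis genes, while 10 of 11 replication genes did not pass the test. Among CDK inhibitors 1 gene rose and 2 fell, and cyclins D2 and D3 fell. Of 49 cell cycle genes bright enough to be tested, 14 fell (28.6%), 1 rose and 34 did not pass an adjusted p of 0.05 in limma. At an unadjusted p of 0.05 the counts were 25 lower and 2 higher, 27 of 49 genes against 29.9% of all genes. Over all 10000 genes tested an adjusted p of 0.05 called 8.13% lower and 7.19% higher, 15.3% in all. In a separate list of 46 other mitosis genes it called 1 lower (2.17%). The log2 fold change of IL-1b over vehicle, on values with a small offset added, was below 0 in 42 of the 49 genes, with a median of -0.77 against -0.01 over all genes. The median without IL-1b replicate 1 was -0.89. In 31 of the 49 genes both IL-1b arrays read below both vehicle arrays, and over all genes this held for 31.8%. Both IL-1b arrays read above both vehicle arrays in 4, against 29.4% of all genes, and 61.3% of all genes had groups that did not overlap in either direction. In these samples of whole cultures, fewer cells in a phase of the cycle and less RNA per cell cannot be told apart.

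**Figure D1:**
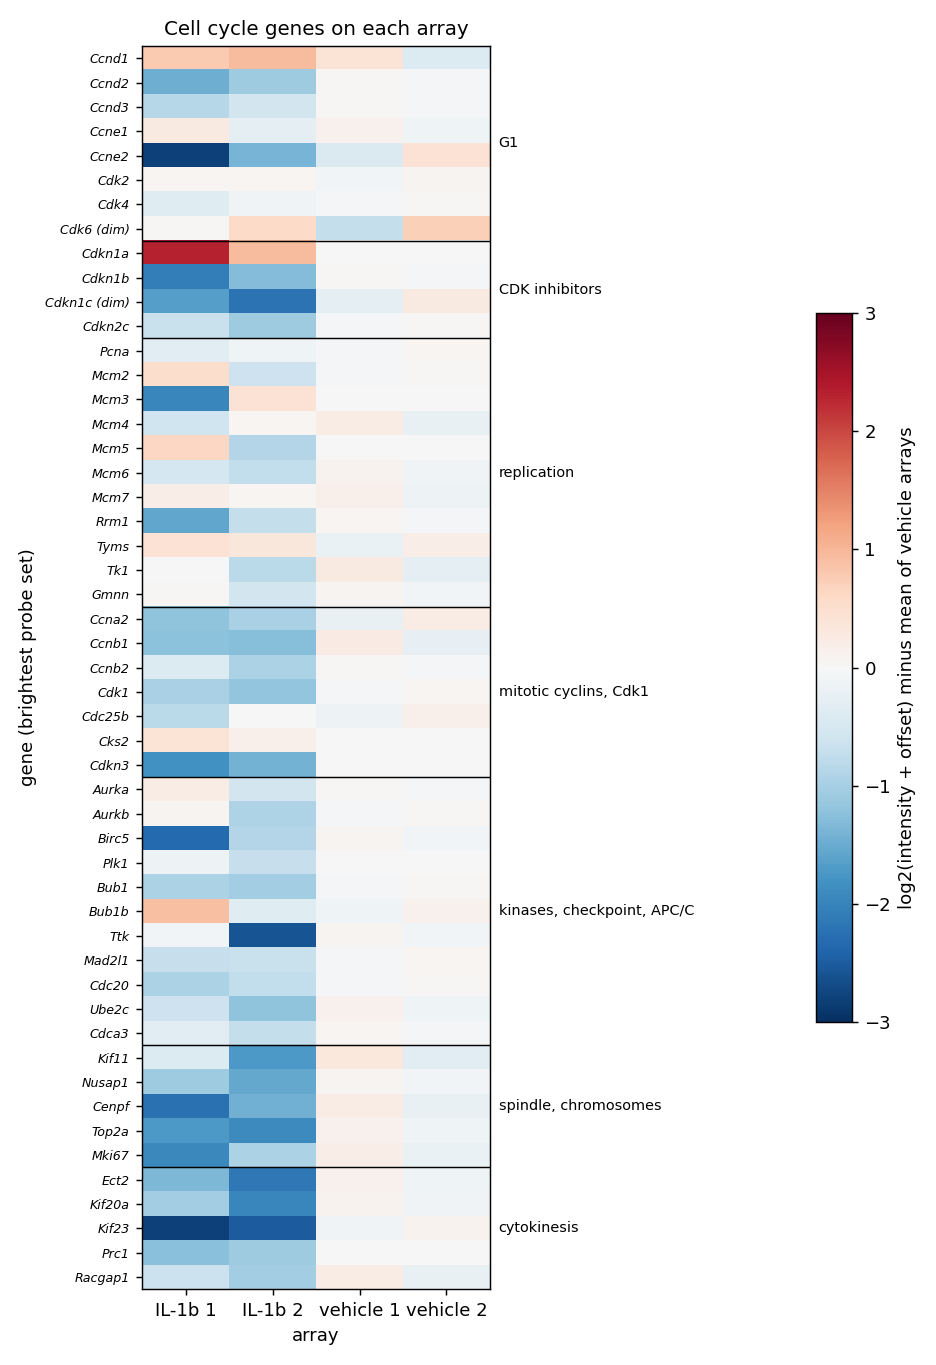
Log2(intensity + offset) of the 51 cell cycle genes on each array, as the difference from the mean of the vehicle arrays (colour scale, log2 units), at the brightest probe set of each gene. Rows are genes grouped by role and columns are arrays, IL-1b first, and Cdk6 and Cdkn1c are marked dim because they were not tested. Every row of the cytokinesis and spindle groups is below 0 (blue) on both IL-1b arrays, palest for Kif11 on IL-1b replicate 1. Replication rows are of both signs, with Mcm2, Mcm3, Mcm4, Mcm5 and Gmnn of opposite sign on IL-1b replicates 1 and 2.

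The calls depended on how the variance was modelled and on which pair of arrays gave the spread. When the variance was not allowed to follow intensity, 3 of the 49 genes (6.12%) were lower and 0 higher, against 2.79% and 2.97% of all genes. Kif23, Cdkn3 and Top2a were the 3 that kept their call. Without IL-1b replicate 1 or 2, 28 and 26 genes were lower (57.1% and 53.1%, against 17.7% and 27.1% of all genes), with 15.2% of all genes higher without IL-1b replicate 1. In turn, without vehicle replicate 1 or 2, 5 genes were lower (10.2%, against 4.45% and 3.99%). Leaving out an array leaves 1 in its group, and the spread is then taken from the other group alone. For the 49 genes the median absolute log2 difference was 0.54 between the IL-1b arrays and 0.17 between the vehicle arrays. Calls kept without an IL-1b array are thus no check on the spread of the IL-1b arrays. The median log2 fold change was -0.89 and -0.64 without IL-1b replicates 1 and 2, and -0.74 and -0.76 without vehicle replicates 1 and 2. All 15 called genes kept their direction in these fits, but most lost their call when vehicle replicate 1 or vehicle replicate 2 was left out.

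Of 5 tested cytokinesis genes 4 fell and 0 rose, with a median log2 fold change of -1.51 (-1.96 without IL-1b replicate 1). In all 5 both IL-1b arrays read below both vehicle arrays, against 31.8% of all genes. Kif23 (MKLP1), the kinesin of the centralspindlin complex that builds the midzone of the dividing cell, read 87.0 and 110 with IL-1b, against 595 and 694 with vehicle. Both IL-1b arrays lay far below both vehicle arrays, and the groups did not overlap. The log2 fold change was -2.65 ± 0.22 (SE, adjusted p = 4.5e-04), a 6.27-fold fall. On IL-1b replicate 1 this reading lay just above the background of that array, 76.7. The second probe set of Kif23, below background on IL-1b replicate 1, gave -1.58 (adjusted p = 0.035). Over 14 alternative settings the value for Kif23 lay between -2.85 and -2.11, and it passed in all 14.

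Ect2, the exchange factor that activates RhoA for the contractile ring, read 76.1 and 41.1 with IL-1b, against 223 and 183 with vehicle. The groups did not overlap, IL-1b replicate 1 was just below its own background, and the log2 fold change was -1.75 ± 0.39 (adjusted p = 0.027). Kif20a (MKLP2), a kinesin that carries the chromosomal passenger complex to the midzone, read 129 and 65.7 with IL-1b and 295 and 251 with vehicle, a change of -1.51 ± 0.35 (adjusted p = 0.034). Here too every IL-1b array was below every vehicle array, although the IL-1b arrays differed by more than the vehicle arrays did. Prc1, which bundles the antiparallel microtubules of the midzone, read 171 and 194 with IL-1b and 411 and 416 with vehicle, a change of -1.16 ± 0.19 (adjusted p = 0.0090). Racgap1, the partner of Kif23 in centralspindlin, read 100.4 and 74.1 with IL-1b and 187 and 136 with vehicle, and did not pass (-0.85 ± 0.34, adjusted p = 0.16). Ect2, Kif20a and Prc1 did not pass without vehicle replicate 1 or without vehicle replicate 2.

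Among proteins of the spindle, kinetochore and chromosomes, 2 of 5 tested fell, 0 rose, and the median log2 fold change was -1.44. Top2a, the topoisomerase that untangles sister chromatids, read 74.9 and 66.0 with IL-1b and 287 and 238 with vehicle. Both IL-1b arrays were low, with 1 of them above its background, and the log2 fold change was -1.82 ± 0.28 (adjusted p = 0.0066). Its second probe set gave -2.22 and did not pass (adjusted p = 0.059). Nusap1, which stabilises spindle microtubules near chromosomes, read 111 and 79.1 with IL-1b and 254 and 224 with vehicle, a change of -1.30 ± 0.29 (adjusted p = 0.027). The groups did not overlap, and its second probe set gave -0.90 and did not pass (adjusted p = 0.084). Mki67, the antigen used to mark dividing cells, read 34.5 and 72.7 with IL-1b and 169 and 126 with vehicle. The groups did not overlap, but IL-1b replicate 1 was below background and the change of -1.44 ± 0.46 did not pass (adjusted p = 0.089). The kinetochore protein Cenpf (-1.84, adjusted p = 0.11) and the bipolar spindle motor Kif11 (-1.07, adjusted p = 0.27) did not pass either. The median of the 5 genes was -1.53 when IL-1b replicate 1 was left out, and -1.73 when replicate 2 was.

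**Figure D2:**
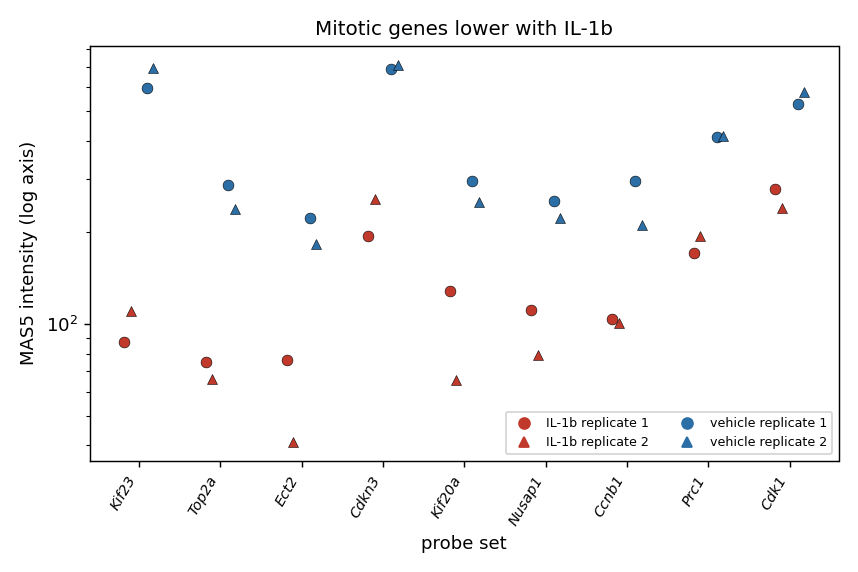
MAS5 intensity (log axis) of the 9 genes of the mitotic groups that were lower with IL-1b, 1 column per gene at its brightest probe set. Red points are IL-1b arrays and blue points vehicle arrays, with circles for replicate 1 and triangles for replicate 2. In every column both red points lie below both blue points, with the widest gap for Kif23 (87.0 and 110 with IL-1b, 595 and 694 with vehicle).

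Of the mitotic cyclins, Cdk1 and its regulators, 3 of 7 tested fell, 0 rose, and the median was -1.08. Cdk1, the kinase that drives entry into mitosis, read 277 and 241 with IL-1b and 530 and 578 with vehicle. The groups were well separated, and Cdk1 fell by 1.08 on the log2 scale (SE 0.18, adjusted p = 0.0083). Ccnb1, its cyclin B1 partner, read 104 and 100.7 with IL-1b and 296 and 211 with vehicle, a change of -1.24 ± 0.28 (adjusted p = 0.028). A second Ccnb1 probe set gave -2.64 ± 0.58 (adjusted p = 0.028). It read 18.1 and 75.0 with IL-1b, the first of these below background, and 309 and 228 with vehicle. Cdkn3, a phosphatase that acts on CDKs and is itself made by dividing cells, read 194 and 257 with IL-1b and 688 and 710 with vehicle. It fell by 1.62 on the log2 scale (SE 0.19, adjusted p = 0.0023) and passed in all 14 alternative settings.

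Cyclins A2 and B2 had values below 0 without passing. Ccna2 (cyclin A2), which acts in S phase and G2, read 53.8 and 64.4 with IL-1b and 111 and 156 with vehicle (-1.09, adjusted p = 0.11). Ccnb2 (cyclin B2) read 237 and 159 with IL-1b and 321 and 308 with vehicle (-0.68, adjusted p = 0.13). For both genes the IL-1b arrays were below the vehicle arrays. Ccna2 gave -0.97 and Ccnb2 -0.96 without IL-1b replicate 1, and -1.21 and -0.40 without IL-1b replicate 2. Cks2, a small subunit of CDK complexes, lay the other way, at 1246 and 1045 with IL-1b and 936 and 948 with vehicle (0.28, adjusted p = 0.30). Cdc25b, a phosphatase that activates Cdk1, overlapped between the groups (-0.40, adjusted p = 0.60).

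Mitotic kinases, spindle checkpoint genes and genes of the APC/C ubiquitin ligase (11 tested) had 0 members past an adjusted p of 0.05 in limma. Their median log2 fold change was -0.68. At an unadjusted p of 0.05 in limma 4 were lower and 0 higher, against 29.9% of all genes in either direction. The median of the 11 genes was -0.74 when IL-1b replicate 1 was left out, and -0.31 when replicate 2 was. Ube2c, the ubiquitin-conjugating enzyme of the APC/C, was nearest to the threshold, at 224 and 146 with IL-1b and 379 and 312 with vehicle (-0.91 ± 0.26, adjusted p = 0.069). Its groups did not overlap. Cdc20, the APC/C activator, read 92.4 and 107 with IL-1b and 178 and 189 with vehicle at its brightest probe set (-0.85, adjusted p = 0.097). Another of its 5 probe sets, below background on IL-1b replicate 1, passed at -2.27 (adjusted p = 0.026). A further tested one did not pass (-0.45), and 2 were too dim to be tested. The checkpoint kinase Bub1 read 61.8 and 57.5 with IL-1b and 120 and 128 with vehicle (-0.99, adjusted p = 0.13). Survivin (Birc5), of the chromosomal passenger complex, read 13.9 and 47.0 with IL-1b and 97.9 and 85.7 with vehicle (-1.61, adjusted p = 0.17), and gave -0.89 without IL-1b replicate 1. In these genes each IL-1b array was below each vehicle array.

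For both Aurora kinases the IL-1b arrays disagreed. Aurka (Aurora A), which matures the spindle poles, read 136 and 77.2 with IL-1b and 118 and 113 with vehicle (-0.16, adjusted p = 0.82). Aurkb (Aurora B), which corrects kinetochore attachment, read 135 and 65.2 with IL-1b and 126 and 130 with vehicle (-0.42, adjusted p = 0.54). In each of them, IL-1b replicate 1 read above the vehicle arrays and IL-1b replicate 2 below them. Ttk, the checkpoint kinase Mps1, was below background on both IL-1b arrays, at 72.5 and 8.13 against 81.8 and 71.7 with vehicle. The groups overlapped, and the change of -1.33 did not pass (adjusted p = 0.38). Leaving out IL-1b replicate 1 gave -2.59 for Ttk and -0.92 for Aurkb, and leaving out IL-1b replicate 2 gave -0.08 and 0.07. Plk1, the polo kinase, gave -0.42 (adjusted p = 0.47), the mitotic entry factor Cdca3 -0.51 (0.29), and the checkpoint genes Mad2l1 and Bub1b -0.68 and 0.27 (0.20 and 0.81).

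**Figure D3:**
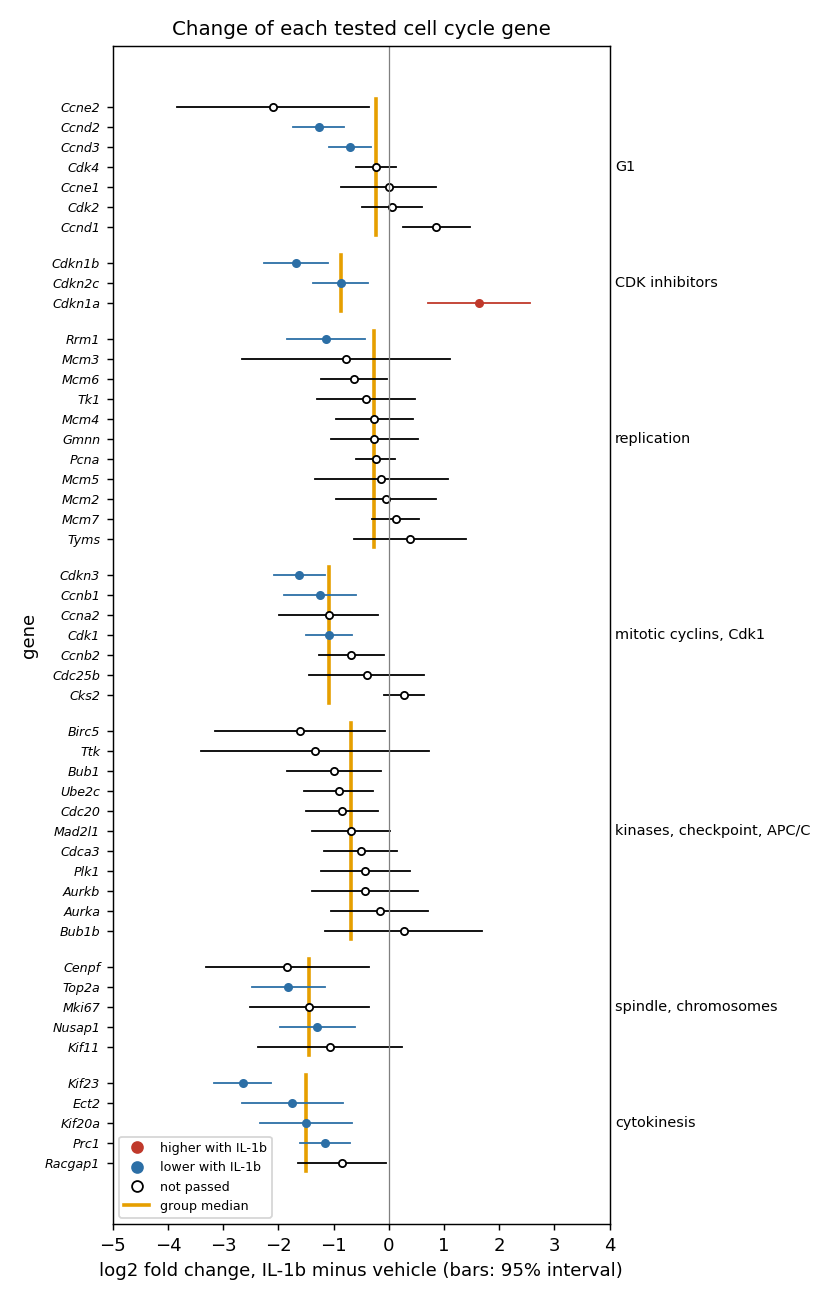
Log2 fold change, IL-1b minus vehicle, of each of the 49 tested cell cycle genes with its 95% interval from limma, ordered by value within 7 role groups, with the group median as an orange line. Filled points passed an adjusted p of 0.05 (blue lower, red higher) and open points did not. The medians run from -0.23 for G1 genes to -1.51 for cytokinesis genes, and Cdkn1a is the red point.

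Promoters of mitotic genes are known for a CHR element and CCAAT boxes, the sites of MuvB complexes and NF-Y, and those of replication genes for E2F sites. RefSeq windows of 300 bases (GRCr8, 250 before the gene start and 50 after) were matched for 41 of the 51 genes. They were searched on both strands for the CHR core TTTGAA, for CCAAT, and for the E2F consensus as TTTCCCGC, TTTGGCGC, TTTCGCGC or TTTGCCGC, and E2F matches on opposite strands may overlap. The CHR core was in 17 of 24 windows of mitotic and cytokinesis genes (70.8%) and in 1 of 17 windows of G1, inhibitor and replication genes (5.88%). It was in 12.3% of 11701 windows of genes named on the array, and in 18.1% of all 27457 windows. CCAAT was in 83.3% of mitotic windows, 58.8% of the others, 37.3% of windows of array genes and 37.7% of all. The E2F letters were in 4.17%, 41.2%, 3.65% and 2.25% of these windows. Among the 9 mitotic genes that fell, 7 windows held the CHR core and 9 held CCAAT. Ccnb1 and Kif20a, whose windows are not shown, lacked the CHR core. A match is a description of the letters and not evidence of a bound site. Windows are shown for 4 genes that fell and for 2 replication genes that did not pass, in lower case with matches in capitals. They lie at chr8:71320535-71320834 (minus strand) for Kif23, chr20:19265043-19265342 (plus strand) for Cdk1, chr2:111966577-111966876 (minus strand) for Ect2, chr1:143659231-143659530 (plus strand) for Prc1, chr9:30733697-30733996 (minus strand) for Mcm3 and chr13:42404303-42404602 (minus strand) for Mcm6.
Kif23: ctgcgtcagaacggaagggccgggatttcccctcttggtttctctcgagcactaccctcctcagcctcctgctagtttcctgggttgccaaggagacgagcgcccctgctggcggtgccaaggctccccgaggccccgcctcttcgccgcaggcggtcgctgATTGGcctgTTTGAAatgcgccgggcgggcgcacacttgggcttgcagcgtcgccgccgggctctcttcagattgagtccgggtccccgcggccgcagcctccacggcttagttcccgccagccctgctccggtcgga
Cdk1: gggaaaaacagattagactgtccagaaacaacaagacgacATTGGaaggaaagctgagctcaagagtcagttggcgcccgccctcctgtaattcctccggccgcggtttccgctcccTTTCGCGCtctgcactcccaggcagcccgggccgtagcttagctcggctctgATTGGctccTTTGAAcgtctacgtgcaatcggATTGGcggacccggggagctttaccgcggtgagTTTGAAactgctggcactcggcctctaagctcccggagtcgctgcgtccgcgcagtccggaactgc
Ect2: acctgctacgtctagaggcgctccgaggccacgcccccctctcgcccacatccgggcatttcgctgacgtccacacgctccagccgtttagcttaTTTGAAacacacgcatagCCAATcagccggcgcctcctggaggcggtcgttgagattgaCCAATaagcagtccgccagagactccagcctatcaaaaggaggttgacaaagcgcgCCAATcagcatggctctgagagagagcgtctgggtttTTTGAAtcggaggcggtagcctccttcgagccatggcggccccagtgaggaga
Prc1: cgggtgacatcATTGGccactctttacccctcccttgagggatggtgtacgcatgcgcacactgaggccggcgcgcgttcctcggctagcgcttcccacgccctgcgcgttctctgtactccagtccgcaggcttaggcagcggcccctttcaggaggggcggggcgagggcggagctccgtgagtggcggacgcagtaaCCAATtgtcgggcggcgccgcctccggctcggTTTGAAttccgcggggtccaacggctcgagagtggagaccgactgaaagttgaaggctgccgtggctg
Mcm3: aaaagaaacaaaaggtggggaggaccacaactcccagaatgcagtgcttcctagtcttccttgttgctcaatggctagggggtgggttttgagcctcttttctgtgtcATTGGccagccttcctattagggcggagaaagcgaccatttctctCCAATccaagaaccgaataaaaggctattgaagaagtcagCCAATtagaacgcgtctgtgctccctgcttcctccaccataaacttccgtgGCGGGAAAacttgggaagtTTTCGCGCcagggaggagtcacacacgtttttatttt
Mcm6: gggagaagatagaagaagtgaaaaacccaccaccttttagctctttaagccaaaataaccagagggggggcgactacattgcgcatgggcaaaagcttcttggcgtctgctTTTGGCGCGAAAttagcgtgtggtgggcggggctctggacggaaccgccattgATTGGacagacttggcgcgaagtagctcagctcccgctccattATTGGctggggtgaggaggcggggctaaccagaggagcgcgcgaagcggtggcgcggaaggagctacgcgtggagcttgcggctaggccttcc
In the Kif23 window the CHR core began 79 bases before the gene start and the CCAAT match 88 bases before it. In Prc1 the CHR core began 18 bases before the start and the nearer CCAAT 50 bases before it. Mcm3 and Mcm6 held 2 E2F matches each and no CHR core, and those of Mcm6 overlap. Other replication genes differed: the Mcm2 window held the CHR core, and those of Pcna, Tk1 and Rrm1 held no E2F match.

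**Figure D4:**
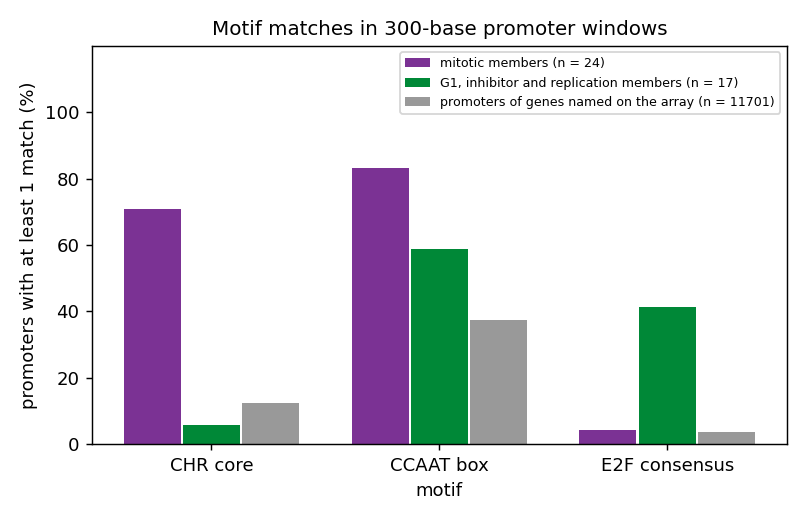
Share of RefSeq promoter windows with at least 1 match to each motif, in percent from 0, for 24 mitotic and cytokinesis genes (purple), 17 G1, inhibitor and replication genes (green) and 11701 genes named on the array (grey). The CHR core is in 70.8%, 5.88% and 12.3%, and the E2F consensus in 4.17%, 41.2% and 3.65%.

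Of 11 replication genes tested, 1 fell, 0 rose and 10 did not pass, with a median log2 fold change of -0.26, and leaving out IL-1b replicate 1 moved that median to -0.56 and leaving out replicate 2 instead to -0.01. In 4 of the 11 the groups did not overlap, against 61.3% of all genes, and Tyms among them was higher with IL-1b. The member that fell was Rrm1, the large subunit of ribonucleotide reductase, which makes deoxyribonucleotides. It read 132 and 240 with IL-1b and 415 and 382 with vehicle, both IL-1b arrays below both vehicle arrays, at -1.14 ± 0.30 (adjusted p = 0.049), and it passed in 6 of 14 alternative settings. Without IL-1b replicate 1 its change was -0.72. Pcna, the sliding clamp of the replication fork, read 1409 and 1620 with IL-1b and 1719 and 1851 with vehicle (-0.24 ± 0.15, adjusted p = 0.35). The 95% interval of the Pcna change was -0.59 to 0.11.

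The 6 tested subunits of the MCM helicase, which opens DNA at origins, had no call. Mcm6 was the one of them with groups that did not overlap, at 143 and 122 with IL-1b and 223 and 194 with vehicle (-0.64, adjusted p = 0.16). Mcm7 read 531 and 478 with IL-1b and 514 and 413 with vehicle (0.13, adjusted p = 0.69). For Mcm2 and Mcm5, IL-1b replicate 1 was above and IL-1b replicate 2 below the vehicle arrays. Mcm2 read 258 and 115 with IL-1b and 175 and 181 with vehicle, and Mcm5 179 and 59.4 with IL-1b and 114 and 116 with vehicle. Mcm3 was turned the other way, at 16.0 and 107 with IL-1b and 77.5 and 79.1 with vehicle. These genes overlapped between the groups, so their direction cannot be read at this precision. Mcm4 (-0.26), the nucleotide enzymes Tyms (0.38) and Tk1 (-0.41) and geminin (Gmnn, -0.26), which blocks a second round of origin licensing, did not pass (adjusted p = 0.53 to 0.66).

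The D-type cyclins, which couple growth signals to Cdk4 and Cdk6, gave calls in both directions, the higher ones at dimmer Ccnd1 probe sets. Ccnd1 (cyclin D1) read 2253 and 2506 with IL-1b and 1725 and 986 with vehicle at its brightest probe set. Both IL-1b arrays were above both vehicle arrays, but the vehicle arrays differed and the change of 0.86 ± 0.26 did not pass (adjusted p = 0.076). Its other 2 probe sets rose by 0.84 ± 0.16 and 1.33 ± 0.15 (adjusted p = 0.015 and 0.0019). The last of these read 1360 and 1422 with IL-1b and 598 and 507 with vehicle. Ccnd2 (cyclin D2) read 226 and 299.98 with IL-1b and 651 and 618 with vehicle, and fell with no overlap of the groups (-1.27 ± 0.19, adjusted p = 0.0065). Ccnd3 (cyclin D3) read 913 and 1128 with IL-1b and 1707 and 1608 with vehicle, a fall of less size (-0.70 ± 0.16, adjusted p = 0.029). Ccnd3 did not pass without vehicle replicate 1 or without vehicle replicate 2, and the adjusted p of Ccnd2 with no intensity trend was 0.063.

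The G1 kinases and cyclin E gave no call. Cdk4, the main partner of cyclin D, read 1610 and 1897 with IL-1b and 1995 and 2121 with vehicle (-0.23 ± 0.15, adjusted p = 0.37), with a 95% interval of -0.59 to 0.12. Cdk2, the partner of cyclin E, read 189 on both IL-1b arrays and 170 and 192 with vehicle (0.06, adjusted p = 0.89). Ccne1 (cyclin E1) read 125 and 82.5 with IL-1b and 111 and 92.9 with vehicle, a difference of 0.00 with an interval of -0.86 to 0.86. Ccne2 (cyclin E2) was low and variable, at 8.84 and 33.0 with IL-1b and 68.6 and 131 with vehicle (-2.10 ± 0.73, adjusted p = 0.12), and its other probe set gave 0.09. Cdk6 was below background on all 4 arrays, at 3.28 to 18.5, and was not tested. Over the 7 tested genes of G1, 2 fell, 0 rose and the median was -0.23.

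**Figure D5:**
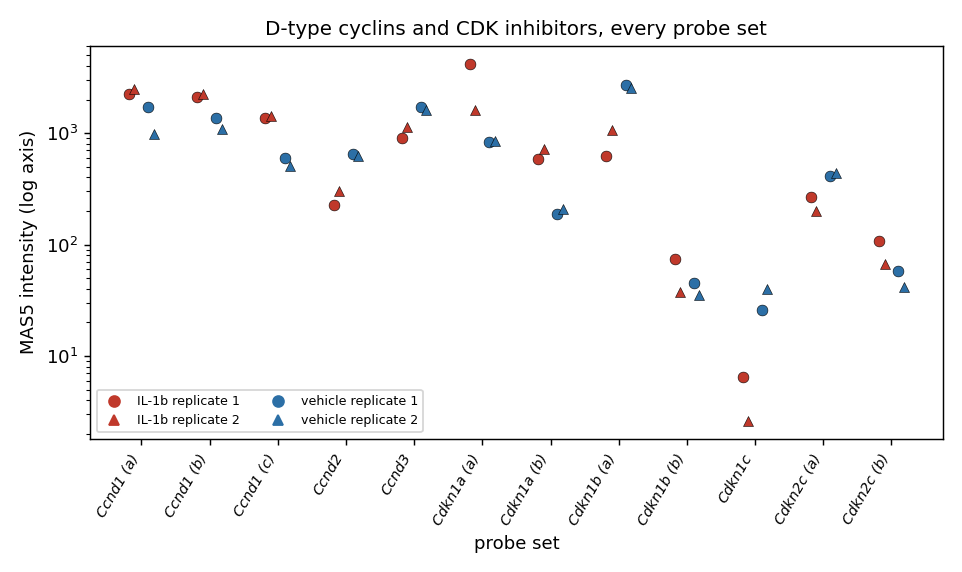
MAS5 intensity (log axis) on every array for all 12 probe sets of the D-type cyclins and the CDK inhibitors, with letters for probe sets of 1 gene from the brightest down. Red is IL-1b and blue is vehicle, with circles for replicate 1 and triangles for replicate 2. Red lies above blue at each Cdkn1a probe set, at 4191 and 1630 against 830 and 852, and at 587 and 714 against 190 and 208. It also lies above blue at all 3 probe sets of Ccnd1, the brightest of which did not pass. Red lies below blue for Ccnd2 and Ccnd3, and the probe sets of Cdkn1b and of Cdkn2c differ from each other.

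CDK inhibitors gave the 1 rise and also falls. Cdkn1a (p21), a broad inhibitor of CDKs and a target of p53, read 4191 and 1630 with IL-1b and 830 and 852 with vehicle. IL-1b replicate 1 was far the highest, and both IL-1b arrays were above both vehicle arrays. The log2 fold change was 1.63 ± 0.39 (adjusted p = 0.036). Leaving out IL-1b replicate 1 gave 0.95, and leaving out IL-1b replicate 2 gave 2.31. Its second probe set, at 587 and 714 with IL-1b and 190 and 208 with vehicle, rose by 1.68 ± 0.19 (adjusted p = 0.0016).

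Cdkn1b (p27), the inhibitor that accumulates in quiescent cells, read 622 and 1064 with IL-1b and 2711 and 2542 with vehicle. It fell with no overlap, by 1.68 on the log2 scale (SE 0.25, adjusted p = 0.0054). A far dimmer second probe set read 75.0 and 37.3 with IL-1b and 45.7 and 34.9 with vehicle and gave 0.37 (adjusted p = 0.74). The mean of both probe sets gave -0.66 and did not pass (adjusted p = 0.052). Cdkn2c (p18), an inhibitor of Cdk4 and Cdk6, read 266 and 199.6 with IL-1b and 413 and 438 with vehicle (-0.87 ± 0.21, adjusted p = 0.037). Its dimmer probe set, at 109 and 67.7 with IL-1b and 58.2 and 41.4 with vehicle, lay the other way (0.74, adjusted p = 0.37), and the mean of both was -0.06. Cdkn1c (p57) was too dim to be tested. It read 6.51 and 2.62 with IL-1b, below background, and 25.9 and 39.7 with vehicle, with 1 of the 2 vehicle arrays above background.

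Several cell cycle genes had more than 1 probe set, which allows a check within the array. Over all 67 tested probe sets of these genes, 17 fell and 4 rose, against 7.11% lower and 6.32% higher (13.4% in all) over the 18625 probe sets of the array that were tested. Of 15 genes with several tested probe sets, 10 had all of them on the same side of 0, and in 0 were there calls in both directions. The 5 with both signs were Ccne2, Cdk2, Cdkn1b, Cdkn2c and Mad2l1. Both tested probe sets of Ccnb1 and of Kif23 fell and both of Cdkn1a rose. The dimmer probe sets of Ccnb1 and Kif23 were below background on IL-1b replicate 1.

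Other genes of the cell cycle, in 4 lists drawn up by role, were set beside these. Of 121 tested, 7 rose (5.79%) and 6 fell (4.96%), against 7.19% and 8.13% of all genes. In a list of other mitosis genes 1 of 46 fell (2.17%) and 0 rose, a smaller share of falls than the 8.13% of all genes. Their median log2 fold change was -0.53, with 32 of 46 below 0. Of these 46, 23 were above background on all 4 arrays and their median SE was 0.46, against 19 of 28 and 0.34 for the mitotic genes above. Without IL-1b replicate 1 the medians were -0.45 for the 46 and -1.05 for the 28. The 1 that fell was Nuf2, of the kinetochore's NDC80 complex, at 61.8 and 103 with IL-1b and 275 and 297 with vehicle (-1.77 ± 0.31, adjusted p = 0.012).

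Among 32 tested genes of replication origins, forks and repair synthesis, 1 fell and 0 rose (median -0.22). It was Rpa1, which binds single-stranded DNA, at 173 and 344 with IL-1b and 745 and 832 with vehicle (-1.66 ± 0.31, adjusted p = 0.014). Of 19 E2F, pocket protein and DREAM regulators 1 fell and 0 rose (median -0.14). It was Rb1, the retinoblastoma protein, at 124 and 144 with IL-1b and 269 and 373 with vehicle (-1.21 ± 0.25, adjusted p = 0.023). In both genes the IL-1b arrays lay below the vehicle arrays.

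In the list of other CDK inhibitors, growth arrest genes and p53 targets, 7 of 24 rose (29.2%), 3 fell (12.5%) and the median was 0.27. Gadd45a, a stress gene that blocks progress through G2, read 2003 and 2359 with IL-1b and 535 and 436 with vehicle (2.16 ± 0.17, adjusted p = 3.6e-04). Cdkn2b (p15), an Ink4 inhibitor of Cdk4 and Cdk6, read 619.6 and 675 with IL-1b and 153 and 133 with vehicle (2.14 ± 0.19, adjusted p = 5.8e-04). Both were several times higher on each IL-1b array than on either vehicle array. Plk2, a polo-like kinase, read 261 and 358 with IL-1b and 69.7 and 97.1 with vehicle (1.82 ± 0.30, adjusted p = 0.0084). Gas6, a ligand of the Axl receptor first found in growth-arrested cells, read 1245 and 1377 with IL-1b and 7623 and 7528 with vehicle (-2.53 ± 0.15, adjusted p = 1.3e-04). Gadd45g, a stress gene related to Gadd45a, read 190 and 99.6 with IL-1b and 602 and 609 with vehicle (-2.09 ± 0.30, adjusted p = 0.0050). These falls too came with no overlap of the groups. The other calls in this list, named after their values were seen, were Cdkn2a (1.73), which encodes p16 and Arf, the p53 regulator Mdm2 (1.19), Zmat3 (0.81), Ccng1 (0.59) and Foxo1 (-1.25).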

How the data were processed

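Biotin-labelled RNA of 4 samples was hybridised to 1 array each, per the labels' protocols. The authors deposited linear intensities per probe set. MAS5 is named in the submitters' processing notes, with a version and settings not given in the sources used here. With the lowest and highest 2% of values trimmed, every array had a mean of 250.1, and no further scaling was applied.

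Before log2, 5.49 intensity units (the 10th percentile) were added, which understates the change of dim genes. Of 31099 probe sets, 57 controls were left out, and 18625 with a mean at or above the 40th percentile entered a limma fit (version 3.58.1, R 4.3.3, group means, eBayes with an intensity trend, 2 residual degrees of freedom). Adjusted p is by Benjamini-Hochberg over all fitted probe sets, and intervals are at 95%. Each gene is its brightest probe set with 1 symbol, and 99.7% of such probe sets matched a current gene. Values in full are given for genes past the threshold, the CDK inhibitors, the brightest tested gene of each role group, and up to 5 genes past the threshold from each other list. Further genes were named after their values were seen. The genes and lists were chosen with earlier results of these data known. The fit was run on simulated data whose spread in both groups was taken from the vehicle arrays. That run is no check on the wider spread of the IL-1b arrays.

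The number of arrays limits the precision. Deviations of same-numbered arrays from their group means correlated at r = 0.07 over probe sets, and nothing in the labels ties the numbers to a shared batch. Alternatives were other offsets, normalizations, filters, variance priors, thresholds and probe set rules, the replicate number as a block, and leaving out each array.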

Additional observations from a re-analysis of the deposited data

How the results depend on the processing

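Of 19 genes followed over the settings, 0 changed direction in any that could be fitted. Ect2 was too dim for the filter at the 60th percentile and has no value there. Values are given higher then lower. Counts of probe sets past the threshold were 1178 and 1325, and 484 and 479 with no intensity trend, and 595 and 627 at an adjusted p under 0.01. Median centring shifted the median of all genes by -0.20 (log2) and gave 562 and 1072, so that 34.4% of calls were higher instead of 47.1%. Counts of cell cycle genes, 1 and 14, were 0 and 3 with no intensity trend, 0 and 7 at an adjusted p under 0.01, and 2 and 12 with the mean of all probe sets of a gene. With the replicate number as a block they were 2 and 17, and 15 of the listed pathway genes were lower against 6. Those pathway counts, 7 and 6, were 4 and 12 with median centring and 4 and 1 with no intensity trend. The block result rests on the number in the labels alone and ended no call among the 15 genes.

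Leaving out each array in turn gave ranges of 699 to 4137 and 658 to 4529 probe sets, 1 to 3 and 5 to 28 cell cycle genes, and 5 to 16 and 4 to 38 pathway genes. The lone array of a group was then assumed to vary like the other group. Under the same settings the group medians ran from -0.56 to -0.014 for replication, -1.01 to -0.86 for mitotic cyclins and Cdk1, -0.74 to -0.31 for kinases, checkpoint and APC/C, -1.73 to -1.24 for spindle and chromosomes, and -1.96 to -1.25 for cytokinesis.

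With median centring the medians were -0.97 for all cell cycle genes, -0.44 for G1, -0.47 for replication, -1.29 for mitotic cyclins and Cdk1, and -0.89 for kinases, checkpoint and APC/C, and the last was -0.85 with quantile normalization and -0.51 with the mean of probe sets. The median of the CDK inhibitors was -1.28 with no filter, which adds Cdkn1c, and -0.064 with the mean of probe sets. Rrm1 missed the threshold in 8 of 14 settings and Cdkn2c in 6. The cause of these shifts was not tested beyond what each setting changes. Signal over background limits dim genes: 38 of 51 cell cycle genes were above background on both IL-1b arrays and 49 on both vehicle arrays.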

Other observations

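Outside the cycle proper, 26 further cyclins and CDKs, most of them linked to transcription or to neurons and other differentiated cells, had probe sets with a single symbol. They were taken by symbol after the data were examined. Of 24 tested, 1 rose, 1 fell and 22 did not pass, with a median log2 fold change of 0.01. Ccnl1 (cyclin L1), which acts in transcription and splicing with Cdk11, read 2411 and 2182 with IL-1b and 623 and 591 with vehicle, 3.76-fold higher (1.91 ± 0.14, adjusted p = 2.9e-04). Ccni (cyclin I), which is abundant in cells that do not divide, read 2326 and 2107 with IL-1b and 4355 and 4517 with vehicle (-1.001 ± 0.15, adjusted p = 0.0055), and its second probe set fell too (-1.02, adjusted p = 0.0079). In both genes the groups did not overlap.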
